A study of Mus musculus with 48 samples.

Results

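The joints described here came from Ku70-/- vAbl cells, read from the coding end (CE) of the Jκ1 break before and after G0-G1 arrest. They were chosen by their labels, Ku70-/- genotype with the JK1CE bait and either the Cycling or the STI-571 + DMSO treatment, and make up 6 of the 48 libraries of the series. The question asked of them was how joints made by alternative end joining (A-EJ) at RAG1/2 breaks differ between cycling and arrested cells. vAbl lines derive from mouse pro-B cells and are kept dividing by the viral Abelson kinase. The 3 cycling libraries came from untreated cells. The 3 arrested libraries came from cells given STI-571, an inhibitor of that kinase, at 3 μM with the DMSO vehicle for 96 hours. The study gave STI-571 both for arrest and to induce V(D)J recombination. Arrest and induction therefore cannot be told apart here, and the cycling libraries hold joints formed without that induction. All 6 share the Ku70 deletion and came from 1 clonal line derived from the WT line, so both treatments were read in a single clone. Junction lists hold no expression values, so loss of Ku70 itself could not be checked in them. The matching 6 WT libraries (JK1CE, the same treatments) are given only as a comparison.

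RAG1/2 cut between a gene segment and its recombination signal sequence (RSS), which is a conserved heptamer and nonamer separated by a spacer. Each cut leaves a hairpin-sealed coding end and a blunt signal end (SE). Classical non-homologous end joining (NHEJ) opens the hairpins and joins the ends, and it begins when the Ku70-Ku80 heterodimer binds them. Without Ku, the joints that still form are products of A-EJ, which is known for lost end sequence and for short stretches of shared bases, or microhomology (MH), at the joint. A Jκ1 coding end can be joined to a Vκ coding end, a CE-CE joint, or to a Vκ signal end, a hybrid CE-SE joint.

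The bait end and the Vκ ends that recur in the results are shown first, with the coding bases in lower case on the left and the RSS heptamer and nonamer in capitals. The Jκ1 break lay before chr6:70672556 (mm9), the first base of Jκ1, and is shown on the minus strand, as the bait reads left to right into it.

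Jκ1 (chr6:70672517-70672575, minus strand): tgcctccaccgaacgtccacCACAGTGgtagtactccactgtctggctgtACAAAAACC
Igkv1-135 (chr6:67560483-67560530, plus strand): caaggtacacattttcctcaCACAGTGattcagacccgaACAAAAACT
Igkv2-112 (chr6:68170681-68170728, plus strand): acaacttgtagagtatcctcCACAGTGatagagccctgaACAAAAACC
Igkv12-46 (chr6:69714489-69714536, minus strand): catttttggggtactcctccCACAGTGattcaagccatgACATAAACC
Igkv8-24 (chr6:70166824-70166871, minus strand): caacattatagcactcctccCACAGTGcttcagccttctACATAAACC
Igkv3-12 (chr6:70468824-70468871, plus strand): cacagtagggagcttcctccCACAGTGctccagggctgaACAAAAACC
Igkv3-10 (chr6:70523205-70523252, plus strand): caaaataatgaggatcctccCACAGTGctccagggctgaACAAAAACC

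These 6 Vκ ends are the most used site of both conditions, sites whose use passed the test described later, and the site that 1 recurrent joint dominated. In all, 138 Vκ break sites were used, of which 63 are deletional (DEL) and 75 inversional (INV) with respect to Jκ1, and a junction within 200 bp of a site was counted as a Vκ joint.

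Every library was made from 500000 read pairs and reads were not deduplicated, so values count amplified copies unless distinct joints are named. The cycling libraries held 14579, 12295 and 13694 junctions and the arrested libraries 133143, 153717 and 150309. Arrested library 1 stood apart from the other two. Its 94115 Vκ joints were copies of only 889 distinct joints, against 12885 and 12042 distinct joints in arrested libraries 2 and 3, and its most frequent Vκ joint was read 3670 times. It is also not among the libraries that the study lists, so the values of each library are given and library 1 is named where it changes an order. With 3 libraries against 3, the exact permutation test cannot give a p below 0.1. That value was reached by 12 of 19 measures, those in which the groups did not overlap, and becomes 0.158 after Benjamini-Hochberg adjustment over the 19. The libraries are labelled as separate samples and the study describes biological repeats, but arrested libraries 2 and 3 were much closer to each other than to library 1.

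Arrested and cycling libraries differed in both the number and the kind of Vκ joints. V-J efficiency (V-J Eff), the share of read pairs with a Vκ joint, was 1.23%, 0.936% and 1.11% in cycling cells and 18.8%, 22.4% and 21.5% in arrested cells. The mean was 1.09% ± 0.146 (SD, n = 3) before and 20.9% ± 1.88 (SD, n = 3) after arrest. The groups were far apart, with or without arrested library 1 (21.98% without it). As distinct joints V-J Eff was 0.118%, 0.0834% and 0.089% in cycling and 0.178%, 2.58% and 2.41% in arrested libraries, so library 1 lay only slightly above the cycling libraries by that count. As copies, V-J Eff in WT was 5.12% in cycling and 70.2% in arrested libraries by the means, without overlap. Counted as copies in Ku70-/- libraries, types of joint differed in how much more frequent they were. Direct joints, with neither overlap nor added bases, were 27.9 times as many in arrested libraries (30.1 times without library 1), and joints with 1 bp of MH were 30.4 times as many (28.5 times). Joints with MH over 1 bp were 8.28 times as many (9.56 times), and those with insertions 4.35 times (5.71 times). As distinct joints without library 1 the folds were 37.6 for direct joints, 30.1 for 1 bp of MH, 12.5 for MH over 1 bp and 22.5 for insertions, so the place of insertions in this order rested on copies.

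Vκ joints of cycling cells held a larger share with MH over 1 bp. Joints with more than 1 bp of MH were 35.3%, 39.1% and 32.7% of Vκ joints in cycling libraries and 11.8%, 16.7% and 16.9% in arrested libraries. Every cycling library lay well above every arrested one. The difference was -20.6 percentage points (exact two-sided permutation p = 0.1), and -18.9 points without arrested library 1. In WT cells such joints were 2.51% ± 0.291 (SD, n = 3) before and 2.09% ± 0.00891 (SD, n = 3) after arrest. The change in Ku70-/- cells exceeded that in WT cells by 20.1 points (exact permutation of treatments within each genotype, p = 0.1). The groups did not overlap at 2 bp, 3 bp or more. MH of 2 bp was present at 12.001%, 14.7% and 14.8% of cycling and 5.69%, 10.2% and 10.1% of arrested joints. MH of 3 bp was present at 12.3%, 12.2% and 8.76% of cycling joints, but at 2.21%, 3.37% and 3.57% of arrested joints. MH of more than 3 bp was present at 10.8% ± 1.504 (SD, n = 3) of cycling and 3.44% ± 0.366 (SD, n = 3) of arrested joints (3.23% without library 1), with no overlap between groups. Among joints with any MH, the mean length was 2.35 bp ± 0.174 (SD, n = 3) in cycling and 1.63 bp ± 0.0912 (SD, n = 3) in arrested libraries (1.68 bp without library 1).

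**Figure D1:**
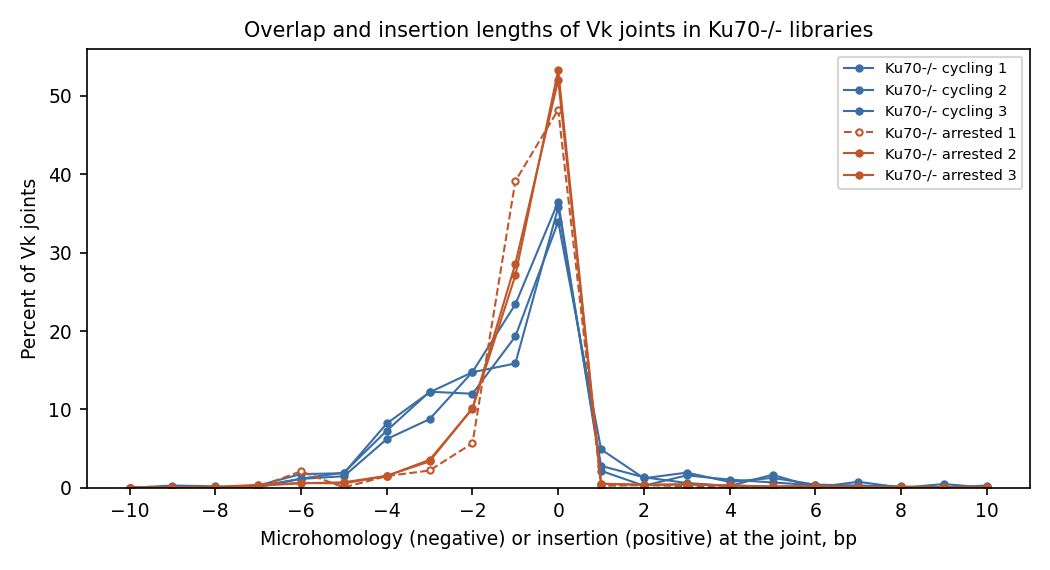
Percent of Vκ joints (y axis) by length of MH (negative) or insertion (positive) in bp (x axis), 1 line per Ku70-/- library, with arrested library 1 dashed and open. The cycling lines carry a shoulder at overlaps of 2 to 4 bp, where 3 bp of MH made up 8.76 to 12.3% of cycling and 2.21 to 3.57% of arrested joints.

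Direct joints showed the opposite order. They were 33.9%, 35.8% and 36.5% of Vκ joints in cycling libraries and 48.2%, 52.0% and 53.3% in arrested libraries. Joints with 1 bp of MH were 19.3%, 15.9% and 23.4% in cycling and 39.1%, 28.6% and 27.1% in arrested libraries. Neither class overlapped between groups when copies were counted. Copies in WT libraries went slightly the other way, from 71.6% to 70.4% direct joints and from 13.5% to 12.4% with 1 bp of MH. Ku70-/- changes minus WT changes were 16.9 and 13.2 percentage points, with an exact permutation p of 0.005 each (0.0238 after adjustment over 19 measures). That p is the smallest this design allows and, as above, does not test whether the changes are equal. When each distinct joint was counted once, library 1 fell among the cycling libraries, with 30.8% direct joints. Libraries 2 and 3 stayed apart, with 47.8% and 48.2% against 30.7 to 36.2% in cycling libraries. Distinct joints with 1 bp of MH were 21.5%, 19.7% and 18.7% in cycling and 17.998%, 23.7% and 23.3% in arrested libraries, so these groups overlapped and library 1 lay below every cycling library. In WT cells distinct joints differed much more than copies did, with 47.4 to 53.7% direct in cycling and 25.8 to 26.4% in arrested libraries, and 8.18 to 9.47% and 5.76 to 6.14% with 1 bp of MH.

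**Figure D2:**
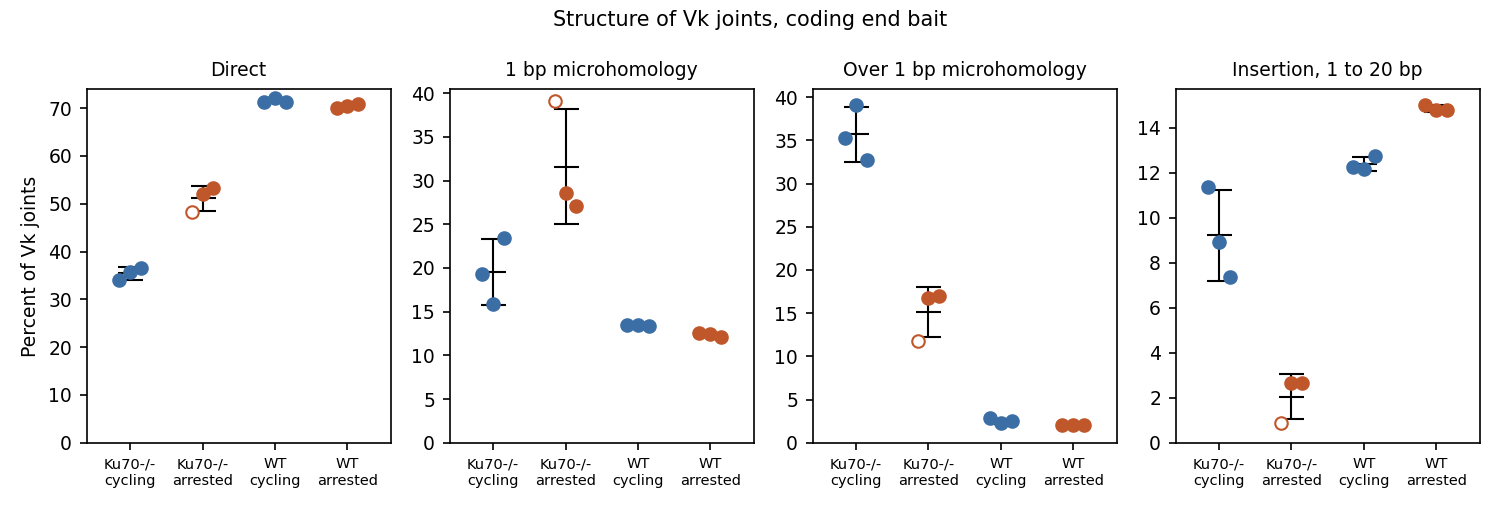
Percent of Vκ joints (y axis) that were direct, had 1 bp of MH, had over 1 bp of MH or had an insertion, for the 4 groups of 3 libraries (x axis). Points are libraries (open: Ku70-/- arrested library 1) and bars are mean ± SD. MH over 1 bp was 35.7% of joints in cycling and 15.1% in arrested Ku70-/- libraries, against 2.51% and 2.09% in WT.

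The MH difference was present at both kinds of Vκ end. Among CE-CE joints, MH over 1 bp was found in 32.9 to 35.4% of cycling and 14.7 to 15.9% of arrested joints. Among hybrid joints it was found in 32.5 to 44.8% of cycling and 7.46 to 20.3% of arrested joints. It was also present in each of the 4 combinations of orientation and end. DEL hybrid joints were the smallest class, 8.43 to 11.9% of cycling Vκ joints, and gave 27.1%, 64.0% and 28.9% in cycling against 1.99%, 21.4% and 19.9% in arrested libraries. There the groups did not overlap, but cycling library 2 was far from the other two. Joints found in only 1 of the 6 libraries kept the order, with 24.0 to 40.1% in cycling and 7.46 to 14.4% in arrested libraries.

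Insertions depended on how joints were counted. As copies, joints with 1 to 20 inserted bases made up 11.3%, 8.94% and 7.35% in cycling and 0.878%, 2.63% and 2.63% in arrested libraries. As distinct joints they were 14.4%, 13.9% and 13.3% in cycling and 34.8%, 12.3% and 12.03% in arrested libraries. The order was therefore lost, and turned for library 1, whose 309 distinct joints with insertions held only 826 copies. Distinct joints read at least 3 times gave 7.14 to 8.64% in cycling libraries and 11.3%, 1.49% and 1.70% in arrested libraries. Without library 1, cycling libraries were higher by each count, narrowly when all distinct joints were taken. In WT cells insertions were 12.2 to 12.7% of copies in cycling and 14.8 to 15.004% in arrested libraries, and 32.2 to 39.5% and 60.4 to 61.4% of distinct joints.

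A larger share of the junctions of cycling cells lay far from any Vκ break. Of the junctions in the Vκ region of chromosome 6, whose first and last sites lie at 67506210 and 70654171, 31.9%, 32.9% and 29.6% lay more than 200 bp from any Vκ site in cycling libraries. In arrested libraries this share was 2.06%, 2.84% and 2.93%. The difference of -28.9 percentage points was the same with library 1 left out (-28.6), and in WT cells these shares were 0.0408 to 0.233% in either condition. The same permutation of treatments within each genotype gave an exact p of 0.04, or 0.127 after adjustment over 19 measures, with the same limit. The number of such junctions differed less than their share. Cycling libraries held 2868, 2298 and 2326 of them and arrested libraries 1980, 3273 and 3249, so these groups overlapped (they did not without library 1). Beyond 200 and up to 5000 bp from a site, arrested libraries held 1.07 times as many junctions as cycling libraries, while within 10 bp of a site they held 23.8 times as many. As distinct junctions without library 1 these folds were 1.65 and 24.2, and all distant junctions together were 2.03 times as many, with 257, 224 and 205 in cycling libraries and 501 and 428 in arrested libraries 2 and 3.

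Most of these distant junctions lay on the side of the nearest site into which loss of bases from the broken end runs. Within 5 kb of a site and in that direction were 81.0%, 81.5% and 85.9% of them in cycling libraries, and 96.9%, 66.6% and 67.6% in arrested libraries. The share in arrested library 1 rested on 1 joint of 1382 copies. The distant joints of cycling cells were richer in MH than those at Vκ sites, with over 1 bp in 56.8%, 46.3% and 43.5%, and few were direct, 6.83%, 12.3% and 14.8%. In arrested libraries 2 and 3, MH over 1 bp was found in 39.8% and 33.9% and direct joints in 24.5% and 30.3%. Library 1 gave 2.42% and 79.0%. The Jκ1 bait end had itself lost a median of 23, 26 and 27 bases in the distant joints of cycling libraries, and 9, 17 and 18 in those of arrested libraries. Distant junctions were divided between Vκ coding and signal preys, with 44.0 to 51.7% coding in cycling libraries. Pileups of signal end junctions that lack a heptamer start (CAC) accounted for 1.85 to 2.89% of the distant junctions in cycling libraries and for 7.83%, 18.2% and 24.9% in arrested libraries.

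**Figure D3:**
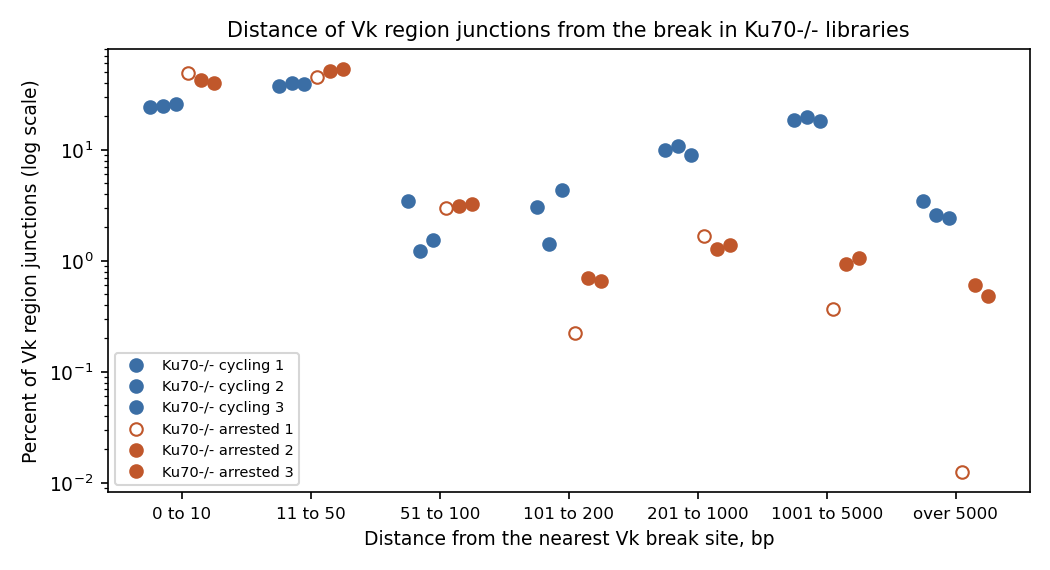
Percent of Vκ region junctions (log y axis) by distance in bp from the nearest Vκ break site (x axis), 1 point per Ku70-/- library (open: arrested library 1). Arrested libraries lie above cycling ones up to 50 bp and below them beyond 100 bp, and the groups overlap between. Beyond 1000 and up to 5000 bp they hold 0.372 to 1.07% and cycling libraries 18.1 to 19.6% of junctions.

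Closer to the break the groups differed less. Of joints within 100 bp of a site, 37.1%, 37.5% and 38.8% lay within 10 bp in cycling libraries and 50.4%, 43.7% and 41.7% in arrested libraries. The groups did not overlap, but counting distinct joints turned the difference from 7.51 to -1.34 percentage points. Distinct shares were 36.1%, 38.6% and 36.8% in cycling and 41.0%, 33.6% and 32.8% in arrested libraries. Library 1 thus lay above every cycling library, and libraries 2 and 3 lay below every one. WT libraries had 97.8 to 98.9% of copies within 10 bp in both conditions. The Ku70-/- change in copies minus the WT change was 8.17 points (exact permutation p = 0.005, which does not test whether the changes are equal). As distinct joints WT libraries had 88.9 to 94.3% in cycling and 75.4 to 78.1% in arrested libraries. At the bait end, fully kept Jκ1 ends were rare, at 3.54%, 0.791% and 1.17% of Vκ joints in cycling and 0.0244%, 1.11% and 1.20% in arrested libraries, against 37.8 to 42.0% in WT. As distinct joints they were 1.35 to 2.36% in cycling and 0.562 to 1.34% in arrested libraries, and 33.4 to 37.4% and 32.6 to 32.9% in WT. The median loss was 16, 16 and 14 bases in cycling and 13, 15 and 15 in arrested libraries, and did not separate the groups. Among joints found in only 1 of the 6 libraries it did, with 20, 21 and 19 bases in cycling and 15, 16 and 16 in arrested libraries. The largest loss in each Ku70-/- library was 54 bases, the limit of the bait sequence that the reads cover. Within cycling libraries the type of joint and the loss went together. Direct joints had lost a median of 10 bases in each library, and joints with MH over 1 bp 21, 21 and 19. In arrested libraries 2 and 3 the same medians were 16 and 15 for direct joints and 14 in both for joints with MH over 1 bp, while library 1, with 15 and 16, kept the order of the cycling libraries.

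Single joints show these structures. The sequences below run from the Jκ1 bait into the Vκ prey. Capitals mark the bases of MH or inserted bases, or, in a direct joint, the last bait base and the first prey base. The first 3 had the most copies at Vκ sites over the cycling libraries, the next 3 the most copies away from Vκ sites over the cycling libraries, and the last 2 the most copies in arrested libraries 2 and 3.

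Igkv1-135, direct: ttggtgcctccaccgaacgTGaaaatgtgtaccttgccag
Igkv2-112, 3 bp of MH: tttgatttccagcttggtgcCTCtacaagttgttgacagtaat
Igkv11-125, 4 bp of MH: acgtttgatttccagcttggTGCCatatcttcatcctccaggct
364 bp from Igkv4-53, 8 inserted bases: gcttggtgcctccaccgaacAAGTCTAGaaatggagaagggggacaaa
2322 bp from a site of the Igkv1 family, 1 inserted base: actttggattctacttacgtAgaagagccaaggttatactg
1247 bp from Igkv12-38, 3 bp of MH: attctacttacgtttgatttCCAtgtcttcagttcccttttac
Igkv12-46, 2 bp of MH: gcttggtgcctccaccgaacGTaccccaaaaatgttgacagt
Igkv3-10, direct: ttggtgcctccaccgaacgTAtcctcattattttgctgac

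The Igkv1-135 joint, which had lost 4 bases from each end, was read 136, 305 and 138 times in the cycling libraries. It was also read 146 and 108 times in arrested libraries 2 and 3, and not in library 1. The Igkv2-112 joint was read 65, 102 and 122 times in cycling and 0, 39 and 44 times in arrested libraries, and the Igkv11-125 joint 54, 118 and 66 times in cycling and 0, 14 and 46 times in arrested libraries. The joint with 8 inserted bases was read 101, 110 and 98 times in cycling and 45, 103 and 54 times in arrested libraries. The Igkv12-46 joint, in contrast, was read 1, 0 and 0 times in cycling and 0, 127 and 176 times in arrested libraries.

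Exact recurrence of this kind was found in both conditions. Of the distinct Vκ joints of a cycling library, 18.8%, 23.7% and 21.3% were found in another cycling library, and 45 joints in all 3, which held 22.3%, 31.5% and 25.6% of copies. Of the distinct joints of an arrested library, 22.8%, 18.3% and 19.6% were found in another arrested library, with 38.5%, 30.95% and 31.8% of copies. In arrested libraries 2 and 3 together, 20.9%, 20.4% and 22.9% of the distinct joints of the cycling libraries were present in both, with 42.0%, 41.4% and 37.8% of copies. In arrested library 1, which held far fewer distinct Vκ joints (889 against 12885 and 12042), 2.36%, 2.40% and 2.25% of them were present, and in any WT library 5.57%, 5.52% and 5.84%. Seen from the arrested side, joints also found in a cycling library made up 2.59%, 2.65% and 2.76% of distinct Vκ joints, much alike in libraries 1, 2 and 3. They made up 3.91%, 5.68% and 5.32% of Vκ joint copies, but 29.8% and 31.1% of the distant junction copies of libraries 2 and 3. The origin of the shared joints was not tested.

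The choice of Vκ site was broadly alike in both conditions, with changes at some sites. Over the 138 sites, mean use in cycling and arrested libraries had a Spearman correlation of 0.85, a description over sites that share libraries. Between arrested libraries 2 and 3 it was 0.99, and between pairs of cycling libraries 0.72 to 0.82. Arrested library 1 gave 0.83 and 0.82 with libraries 2 and 3, and 0.62 to 0.71 with the cycling libraries. Igkv1-135, a deletional segment near the distal end of the locus, was the most used in both, at 73.3 ± 12.5 (SD, n = 3) joints per 1000 Vκ joints in cycling and 48.8 ± 9.97 (SD, n = 3) in arrested libraries. The groups did not overlap, but the change did not pass the test (log2 change -0.58, SE 0.25, limma adjusted p = 0.119), and on distinct joints it was 0.025. At 3 other leading sites the groups overlapped. Igkv6-32 had 48.6 and 34.5, Igkv11-125 39.7 and 28.3, and Igkv8-21 38.97 and 26.6 joints per 1000 in cycling and arrested libraries. On distinct joints the change at Igkv11-125 turned to 0.58 on the log2 scale. Use is a share of all Vκ joints, so each change is relative to the other sites.

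Of 91 sites with enough joints to be tested, 10 (11.0%) passed in either direction, 7 (7.69%) higher and 3 (3.30%) lower in arrested cells, and 22 had an unadjusted p under 0.05. In 27 sites (29.7%) the groups did not overlap. Among those that rose, Igkv12-46 had 24.3, 10.5 and 0 joints per 1000 in cycling and 28.3, 36.5 and 28.8 in arrested libraries (log2 change 2.27, SE 0.66, adjusted p = 0.0228). The log2 change was 0.91 without cycling library 3, which held none, and 3.24 without cycling library 1. Igkv8-24 had 1.63, 0 and 4.52 in cycling and 12.5, 14.3 and 13.9 in arrested libraries (log2 change 2.58, SE 0.84, adjusted p = 0.0312). Its log2 change was 1.93 to 3.16 on leaving out 1 library. Igkv1-110, Igkv1-122 and Igkv6-17 rose as well, by 2.61, 2.79 and 1.71 on the log2 scale. Leaving out 1 library moved these values to between 1.59 (without cycling library 2) and 3.56 (without cycling library 1) at Igkv1-110, 2.37 and 3.62 at Igkv1-122, and 1.41 and 2.23 at Igkv6-17. Igkv1-110 had 14.3, 0 and 3.43 joints per 1000 in cycling and 36.1, 20.3 and 18.5 in arrested libraries. Igkv1-122 had 0, 4.70 and 0 in cycling and 17.2, 8.09 and 10.3 in arrested libraries, so its fitted change also depends on the pseudocount. With a pseudocount of 0.2 per 1000 no site passed as higher. The remaining sites of the 7, Igkv9-124 and Igkv13-84, were at or near 0 in cycling libraries and reached the filter on mean use through the arrested libraries alone. Their passing therefore says little and their fitted changes depend on the pseudocount. Igkv9-124 was not found in a cycling library and had 2.77, 9.38 and 9.29 per 1000 in arrested libraries. Igkv13-84 had 0, 2.14 and 0 in cycling and 17.3, 4.96 and 4.24 in arrested libraries. In cycling libraries 0 to 16 distinct joints supported each of the 7 sites.

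The sites that fell included a pair of sites of the Igkv3 family at the Jκ-proximal end. Igkv3-12 had 52.0, 51.3 and 72.8 joints per 1000 in cycling and 12.7, 25.6 and 24.5 in arrested libraries (log2 change -1.49, SE 0.37, adjusted p = 0.00870). Igkv3-10 had 52.0, 40.2 and 36.1 in cycling and 8.27, 20.8 and 20.9 in arrested libraries (log2 change -1.40, SE 0.45, adjusted p = 0.0312). Igkv2-112 had 11.1, 21.8 and 22.2 in cycling and 1.11, 3.28 and 4.07 in arrested libraries, but the single joint shown above gave 95.6%, 100% and 99.2% of its cycling copies. Its log2 change was -0.45 on distinct joints and 0.21 on those with at least 3 copies, and neither passed. The limma interaction with genotype passed at 1 of 96 sites (1.04%), which was not among these 10 and was at or near 0 in every Ku70-/- library. By group means, all 10 changed in the same direction in WT libraries, but the same share over all tested sites was not counted. At Igkv9-124 the WT groups overlapped, with 0.198, 4.47 and 0.068 in cycling and 2.07, 1.81 and 1.90 in arrested libraries. The calls at single sites depended on every library. Without arrested library 1, 2 or 3 the sites that passed as higher numbered 1, 0 and 0, and those lower 0, 1 and 1. Without cycling library 1, 2 or 3 they numbered 2, 1 and 0 higher and 1, 0 and 0 lower. No site passed in either direction with a pseudocount of 1 junction or without the filter on low use, where 17 and 24 sites had an unadjusted p under 0.05.

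**Figure D4:**
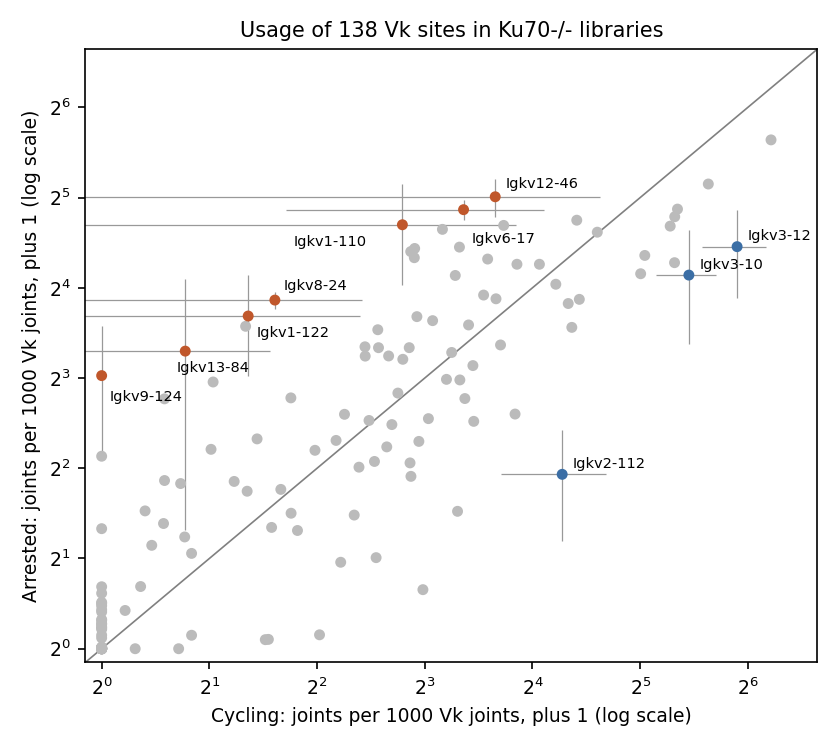
Mean use of the 138 Vκ sites in arrested (y axis) against cycling (x axis) Ku70-/- libraries, in joints per 1000 Vκ joints plus 1, on log scales. Colored and named sites passed the limma test (orange higher, blue lower in arrested), with bars of ± SD over 3 libraries, and the line marks equal use. The 7 that rose had means of at most 11.6 in cycling libraries.

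Taken by family, 4 of 19 Igkv families (21.1%) did not overlap between groups. The 8 Igkv3 sites gave 11.8%, 11.1% and 12.6% of Vκ joints in cycling and 2.14%, 5.57% and 5.17% in arrested libraries, and 2 of the 4 tested fell, where 3.30% of all sites tested did. The same family was 16.4 to 17.9% in cycling and 13.5 to 14.05% in arrested WT libraries. The 8 Igkv1 sites were higher in arrested cells, with 14.9%, 14.4% and 15.2% against 11.2%, 11.3% and 10.5%, and 2 of the 7 tested rose, against 7.69% of all sites tested. These counts rest on the site calls that leaving out 1 library reduced. Igkv14 and Igkv13 were the other two. Igkv4, the largest family with 24 sites, gave 21.4%, 21.8% and 27.99% in cycling and 24.9%, 20.7% and 19.8% in arrested libraries, and 0 of its 22 tested sites passed in either direction. By sub-TAD, a subdivision of the locus into domains of more frequent chromatin contact, the most Jκ-proximal sTAD5 had 46.4%, 41.7% and 41.0% of Vκ joints in cycling and 31.6%, 38.4% and 37.7% in arrested libraries, and sTAD3 13.9%, 12.2% and 11.3% in cycling and 22.2%, 17.3% and 17.6% in arrested libraries. Neither overlapped, under any alternative tried. Shares in sTAD1-2 and sTAD4 and the inversional share overlapped between groups when copies were counted. As distinct joints sTAD1-2 did not overlap, with 12.3%, 13.2% and 11.5% in cycling and 14.8%, 17.04% and 18.1% in arrested libraries. Copies in WT libraries gave sTAD1-2 means of 10.4% in cycling and 13.8% in arrested, sTAD3 13.3% and 16.2%, and sTAD4 31.9% and 26.3%. None of these overlapped in WT, while sTAD5 did, with 44.4% and 43.7%.

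Whether the balance of CE-CE and hybrid joints separated the groups depended on how joints were counted. CE-CE joints were 61.3%, 59.4% and 56.9% of Vκ joints in cycling and 59.7%, 67.3% and 67.01% in arrested libraries, so the groups overlapped through library 1 (log2 ratio of coding to signal preys 0.54 in cycling and 0.88 in arrested, exact permutation p = 0.2; 1.03 in arrested without library 1). As distinct joints the groups did not overlap with library 1 included, with log2 ratios of 0.39, 0.45 and 0.28 in cycling and 0.77, 0.75 and 0.80 in arrested libraries. Counted as copies at inversional sites, the CE-CE share was 52.6%, 47.3% and 47.4% in cycling and 53.7%, 62.2% and 60.4% in arrested libraries, with no overlap. At deletional sites it was 76.6%, 75.5% and 70.8% in cycling and 69.5%, 75.4% and 77.1% in arrested libraries, with overlap. Whether the change differed between orientations was not tested. In WT libraries the log2 ratio of copies had means of 7.42 in cycling and 8.88 in arrested libraries, without overlap.

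Joints back to the Jκ region, within 2 kb of the bait break, were 31.7%, 35.3% and 33.7% of all junctions in cycling and 24.5%, 21.2% and 22.6% in arrested libraries. Limited to the stretch from Jκ1 to Jκ5 the groups overlapped, with 22.7%, 26.6% and 23.8% in cycling and 24.3%, 20.5% and 22.1% in arrested libraries. As a share of read pairs the order was the reverse, with means of 0.905% and 6.62%. Distant junctions were also found on the Jκ1 signal side. Preys more than 100 and up to 2000 bp into that side were 27.7%, 24.3% and 27.3% of Jκ region junctions in cycling libraries, 1283, 1056 and 1258 junctions. In arrested libraries they were 0.101%, 2.99% and 2.24%, or 33, 976 and 763 junctions. MH over 1 bp was present in 59.9 to 67.2% of them in cycling libraries and in 69.697%, 55.5% and 48.0% in arrested libraries, so the groups overlapped through the 33 junctions of library 1. Over the whole Jκ region, MH over 1 bp was found in 38.6 to 42.3% of cycling and 10.5 to 19.4% of arrested junctions. The interval between the Vκ region and the Jκ region held 2.59%, 3.28% and 5.22% of all junctions in cycling and 0.446 to 0.654% in arrested libraries. In number these were 377, 403 and 715 in cycling and 670, 1005 and 671 in arrested libraries, so the counts overlapped and their mean was higher in arrested libraries.

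Joints to the downstream segments Jκ2 to Jκ5 showed the opposite. Within 100 bp of one of these breaks were 3.63%, 8.92% and 5.97% of Jκ region junctions in cycling and 26.6%, 13.9% and 12.9% in arrested libraries. Signal end junctions of Jκ2, Jκ4 and Jκ5 numbered at most 14 each in a cycling library. Those of Jκ4 were found 6, 0 and 0 times in cycling and 1379, 579 and 476 times in arrested libraries. Jκ3, which in mouse is a pseudogene segment, had 0, 0 and 1 signal end junctions in cycling and 0, 16 and 6 in arrested libraries. Coding end shares were higher in arrested libraries at Jκ2 and lower at Jκ3, both without overlap, and overlapped at Jκ5. At Jκ4 they were 1.38%, 4.63% and 3.17% of Jκ region junctions in cycling and 14.4%, 4.85% and 4.36% in arrested libraries, with overlap. All these shares have a total in which the distant signal side was a smaller part in arrested libraries.

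**Figure D5:**
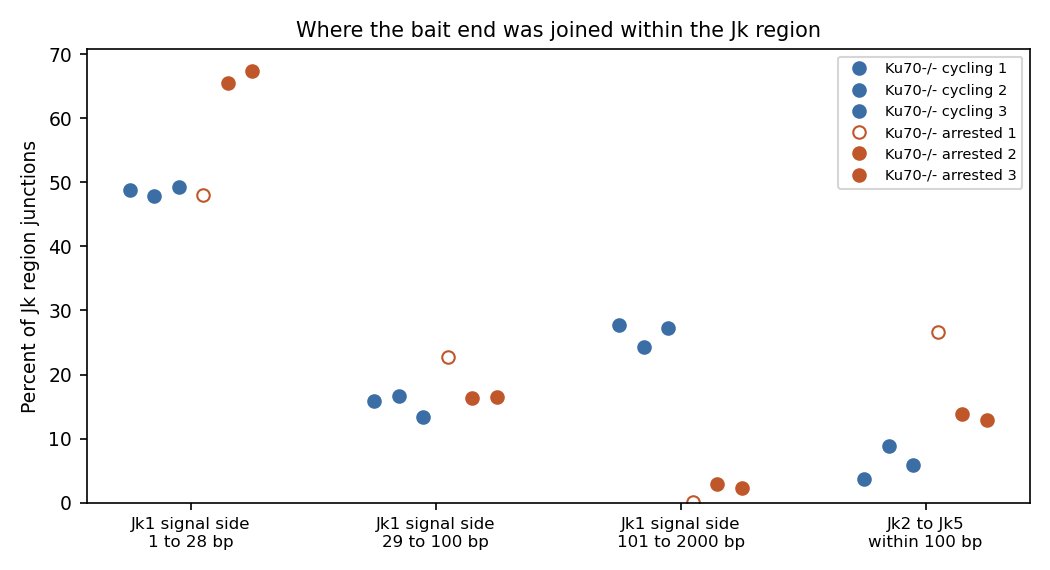
Percent of Jκ region junctions (y axis) on the signal side of the Jκ1 break by distance, and at the Jκ2 to Jκ5 breaks (x axis), 1 point per Ku70-/- library (open: arrested library 1). Preys beyond 100 bp on the signal side were 24.3 to 27.7% in cycling and at most 2.99% in arrested libraries, while Jκ2 to Jκ5 were at most 8.92% in cycling and at least 12.9% in arrested libraries.

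Off chromosome 6, cycling libraries held 66, 123 and 52 junctions and arrested libraries 1423, 1617 and 1554 (40, 58 and 25 against 73, 295 and 273 distinct). The receptor loci examined there, which also carry RSSs, were Igl (the other light chain locus), Igh (heavy chain), and Tcra/Tcrd and Tcrg (T cell receptor). No other receptor locus was examined. As a share of all junctions, those off chromosome 6 were 0.453%, 1.0004% and 0.38% in cycling and 1.07%, 1.05% and 1.03% in arrested libraries, so cycling library 2 was close to the arrested libraries. None of the cycling Ku70-/- junctions lay in one of these loci. Counted over copies, that allows shares of up to 4.55%, 2.44% and 5.77% (3 counts, counting error only), and larger ones over the fewer distinct joints. In arrested libraries the Igl locus received 1065, 555 and 519 junctions, from 12, 70 and 76 distinct joints, and 1 joint gave 923 of the junctions of library 1. Igh was joined 0, 27 and 0 times and Tcra/Tcrd 0, 24 and 28 times, while Tcrg had none in any Ku70-/- library. Outside these loci the arrested libraries held 358, 1011 and 1007 junctions. As a share of all junctions these were 0.269%, 0.658% and 0.67%, within the range of the cycling libraries or below it. MH over 1 bp was present in 34.8%, 51.2% and 53.8% of cycling and 8.57%, 23.6% and 21.1% of arrested junctions off chromosome 6, a difference that did not hold for distinct joints (24.0 to 56.9% and 21.98 to 37.0%). On chromosome 6 outside 67 to 71 Mb, junctions were 0.261%, 0.114% and 0.0292% of all in cycling and 0.00451%, 0.135% and 0.145% in arrested libraries, with overlap. WT libraries held 47, 110 and 64 junctions off chromosome 6 in cycling and 253, 284 and 334 in arrested cells. These were 0.207%, 0.363% and 0.199% of all junctions in cycling and 0.0656%, 0.0768% and 0.0903% in arrested libraries. Receptor loci held 2.13%, 0% and 0% of them in cycling and 8.30%, 5.99% and 17.4% in arrested libraries.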

How the data were processed

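HTGTS-JoinT-seq junction lists of the 6 Ku70-/- and 6 WT JK1CE libraries were analysed. The authors took 500000 read pairs per library, mapped them with Bowtie2 to mm9 (TranslocWrapper, no deduplication) and added bait region junctions. The deposited rows are single junctions with positions, not a count, score or ratio per gene. Copies are not independent molecules, so limits at 0 cover counting error only.

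Vκ sites were pileups of at least 30 signal end junctions in arrested WT JK1SE libraries that begin at CAC in NCBIM37 (mm9) sequence, and were named by a Vκ gene (GENCODE vM1) ending within 20 bp. Those JK1SE libraries were given STI-571 with DMSO, L67 or L82-G17. Overlap or insertion was Qstart - B_Qend - 1, counted to 20 bp. Sub-TADs were bounded at 68.14, 68.885 and 69.695 Mb. Tests were exact two-sided permutations over libraries, computed in Python 3.11.15 with scipy 1.17.1. Site use was tested with limma 3.58.1 in R 4.3.3 (eBayes with trend) on log2(joints per 1000 Vκ joints + 1), for sites with a mean of at least 1 per 1000, at an adjusted p under 0.05. All p-values measure the spread between these libraries. The limma step was tested on simulated data for this comparison, over 91 sites. Counts were drawn independently, with the same dispersion for all sites and libraries and no repeated copies of single joints. The rates below hold for such counts and were not checked for libraries as uneven as these, so they do not give the error of the calls made here. With no site changed, 1 of 40 runs made a call. With 20 sites changed 4-fold, 93.8% of the higher and 99.4% of the lower ones were recovered in 40 further runs. Because shares have a fixed total, the other sites then shifted by up to 0.503 on the log2 scale, and 0 to 9 of them were called per run.

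Sites named were the 5 largest rises and 5 largest falls past the threshold without overlap, the 6 most used in each condition, and the most used of each sub-TAD and orientation. Joints named had the most copies. Members and lists were chosen with earlier results of these data known. By the leading fields of the read names, which include the lane, reads of the 12 JK1CE libraries fell into 2 sets, each holding all 12. Whether these sets are runs or lanes was not established. Alternatives changed the site window, the counting of copies, the pseudocount, the filter and the libraries used. Other baits and inhibitors were not used here, except in the JK1SE libraries that defined the Vκ sites, some of which were given L67 or L82-G17.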

Additional observations from a re-analysis of the deposited data

Results flagged for a closer look

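What stood out in these 7 results is that the difference between arrested and cycling Ku70-/- libraries was not the same as that between arrested and cycling WT libraries. Each value is the Ku70-/- change minus the WT change. The exact permutation used for 6 of them starts from no treatment effect in either genotype. Its p therefore does not test whether the changes of the genotypes are equal. By exact permutation of treatments within each genotype, p was 0.005 (0.0238 after adjustment over 19 measures) for 4 of them. These were the share of joints within 10 bp of the break (8.17 percentage points), direct joints (16.9 points), joints with 1 bp of MH (13.2 points) and joints with insertions (-9.62 points). The share of joints with an untrimmed Jκ1 end differed by -3.56 points (exact permutation p = 0.025, adjusted 0.095), and the share of Vκ region junctions away from any site by -28.9 points (exact permutation p = 0.04, adjusted 0.127). Of single sites, an inversional site in sTAD5 at chromosome 6 position 70443358, with no annotated gene, had a log2 difference of 1.90 (limma interaction, adjusted p = 0.0204). WT means were 4.10 joints per 1000 in cycling and 0.626 in arrested libraries. Ku70-/- means were 0 and 0.208, so the site could not be lower in arrested Ku70-/- libraries, it passed the filter through WT alone, and the value describes the WT difference. The other 6 values count copies. As distinct joints the untrimmed share was lower in arrested libraries of both genotypes by the group means, and by more in WT, so the difference between genotypes turned in sign. As distinct joints the share with insertions was higher in arrested libraries of both genotypes by the group means, in Ku70-/- cells through arrested library 1 alone.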

How the results depend on the processing

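Of the 12 measures whose groups did not overlap, 7 stayed apart under every alternative run: V-J Eff, MH over 1 bp, sTAD3, sTAD5, the share away from Vκ sites, the number of junctions off chromosome 6 and their antigen receptor share. Distinct joints with at least 3 copies, joints seen in 1 of the 6 libraries, arrested libraries without joints seen in cycling ones, and each set of reads by read name alone were added after seeing the data. Joints shared with cycling libraries were removed from the arrested side alone, which can part the groups by construction in MH and the share away from sites. The same 7 stayed apart under the other alternatives. Values below are arrested minus cycling, in percentage points unless named, and the cause was not tested for any of them. Groups that overlapped by copies separated for the log2 ratio, untrimmed ends, sTAD1-2 and chromosome 6 outside Igk on distinct joints, and those of the Jκ region share met over Jκ1 to Jκ5. No paired analysis was possible because the labels give no replicate numbers. Arrested library 1, with few distinct joints, and the small cycling libraries limit the precision.

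Counting each distinct joint once gave -1.34 for joints within 10 bp, 9.25 for direct joints, 1.72 for 1 bp of MH, 5.85 for insertions, -0.699 for untrimmed bait ends, 4.33 for sTAD1-2, -4.07 for the inversional share, -0.183 for chromosome 6 outside Igk and 0.40 for the log2 ratio of coding to signal preys. With at least 3 copies these were 2.09 within 10 bp, -2.97 for insertions, 5.45 for sTAD1-2, -5.43 for sTAD4, -5.16 for the inversional share and 0.34 for the log2 ratio. Joints seen in 1 library gave -1.47 for untrimmed ends, -4.33 bases for the median bait loss, 7.44 for sTAD1-2 and -6.65 for the inversional share. The smaller set of reads by read name alone gave -1.17 for sTAD1-2 and 0.202 for sTAD4, and 100 bp windows gave 0.501 for sTAD4. The Jκ region share was 5.72 of read pairs, and -2.08 over Jκ1 to Jκ5. Leaving out 1 library gave 0.26 to 0.49 for the log2 ratio, -1.67 to -0.333 bases for bait loss, -0.598 to 2.40 for sTAD1-2, -2.16 to 1.36 for sTAD4, -0.251 to 3.07 for the inversional share and -0.0925 to 0.0232 for chromosome 6 outside Igk.

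Sites that passed in limma numbered 0 higher and 1 lower with a pseudocount of 0.2 per 1000, 0 and 0 with 1 junction, and 0 and 0 without the filter (17, 17 and 24 at an unadjusted p under 0.05). Distinct joints gave 2 higher and 3 lower, at least 3 copies 3 higher and 4 lower, and leaving out 1 library 0 to 2 higher and 0 to 1 lower. The interaction on distinct joints passed at 2 sites higher and 3 lower. Log2 changes turned to 0.025 (distinct) and 0.11 (at least 3 copies) at Igkv1-135, 0.58 and 0.87 at Igkv11-125, 0.0675 and 0.30 at Igkv16-104, and 0.21 (at least 3 copies) at Igkv2-112. Coding preys alone gave 0.54 at Igkv6-32 and 0.33 at Igkv8-21. Leaving out 1 library gave -0.305 to 0.0445 at Igkv16-104 and -0.763 to 0.00415 at Igkv6-32, the upper values without cycling library 1.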
